A study of Rattus norvegicus with 10 samples.

Results

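The genes followed here encode the translation initiation factors (eIFs) and elongation factors (eEFs), read in RNA from the milk fat layer of rat dams. The members were all rows of the deposited expression table with a symbol starting with Eif or Eef, leaving out the eIF2 kinases (Eif2ak genes) and Eef1e1, and keeping rows whose value varied between libraries. The rule matched 60 rows, of which 1, Eif2s3y, was at the lowest value of the table in every library. That left 59 members of the 16748 rows of the table, 12992 of which varied. Eif5, the factor that triggers GTP hydrolysis on eIF2, is present as 2 rows with gene IDs 56783 and 108348073, and the row named Eif3el1 has the gene ID that RefSeq lists as Eif3e.

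The dams were wild-type Sprague-Dawley rats, with no genetic or drug treatment separating the groups. The EE group lived and bred in a large enriched cage, and the standard-housed (SD) group in a standard laboratory cage. Litters of both groups were brought to a common size and mixed by cross-fostering, and milk was taken from the dams on P10 (postnatal day 10) under light isoflurane after an oxytocin injection. There were 5 SD and 5 EE libraries, described as biological replicates, and neither the age of the dams nor the cage of each is given in the sources used here. The p-values below therefore measure the spread between these libraries, and libraries from cage-mates could not be treated as related.

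Protein synthesis begins when eIF2, carrying GTP and the initiator tRNA, joins the small ribosomal subunit together with eIF1, eIF1A and the large eIF3 complex, while the cap-binding complex eIF4F, made of eIF4E, eIF4G and the helicase eIF4A, brings in the mRNA. eIF2 leaves as a GDP form that is recharged by the exchange factor eIF2B, the step that eIF2 kinases block under stress, and eIF4E is held back by the 4E-binding proteins until mTORC1 phosphorylates them. Elongation then needs eEF1A, which delivers tRNAs and is recharged by the eEF1B complex, and eEF2, which moves the ribosome along and is switched off by the kinase encoded by Eef2k. The secretory cells of the lactating mammary gland make milk proteins at a very high rate, and fat globules carry some of the cytoplasm of these cells into milk.

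Values are given as normalized counts recovered from the deposited log2 values, always in the order of replicates 1 to 5 of a group, and spreads are standard deviations over libraries, since SD here names the housing group. Depth, estimated from the recovered counts, was 43283600 to 70208400 reads per library. Caseins took 57.0% to 61.2% of all counts in SD libraries and 40.4% to 61.0% in EE libraries, lowest in EE replicates 5 and 3 (40.4% and 44.1%). All 10 markers of secretory luminal epithelium were above 0 in every library. The 6 myoepithelial markers summed to 1416 to 2254 counts in SD and 2049 to 2753 in EE libraries, mostly from Acta2 (1369 to 2066 and 1922 to 2699), while Myh11, a smooth muscle myosin gene of the same list, had 26.6 to 125.5 in SD and 18.9 to 41.6 in EE libraries. The 8 measured leukocyte markers summed to 282 to 2097 in SD and 178 to 1682 in EE libraries. The 4 adipocyte markers summed to at most 146 counts, with Plin1 at 0 in all libraries, and the 4 endothelial and fibroblast markers to at most 77.3. The part of other cell types in the results below was not tested.

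SD replicate 4 stood apart from the other SD libraries and has to be named before any result. It was the highest SD library for 27 of the 59 members and the lowest for 13. Its median distance from the mean of the other 4 SD libraries was 0.24 on the log2 scale, against 0.07 to 0.16 for the other libraries within their own group. The means of the authors' own table of comparisons matched these libraries best without it (spread of the log2 ratio 0.0220 over 1354 genes, against 0.0807 with all 10 libraries and 0.0973 or more when any other library was left out). Results are therefore given over all 10 libraries and again without SD replicate 4.

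**Figure D1:**
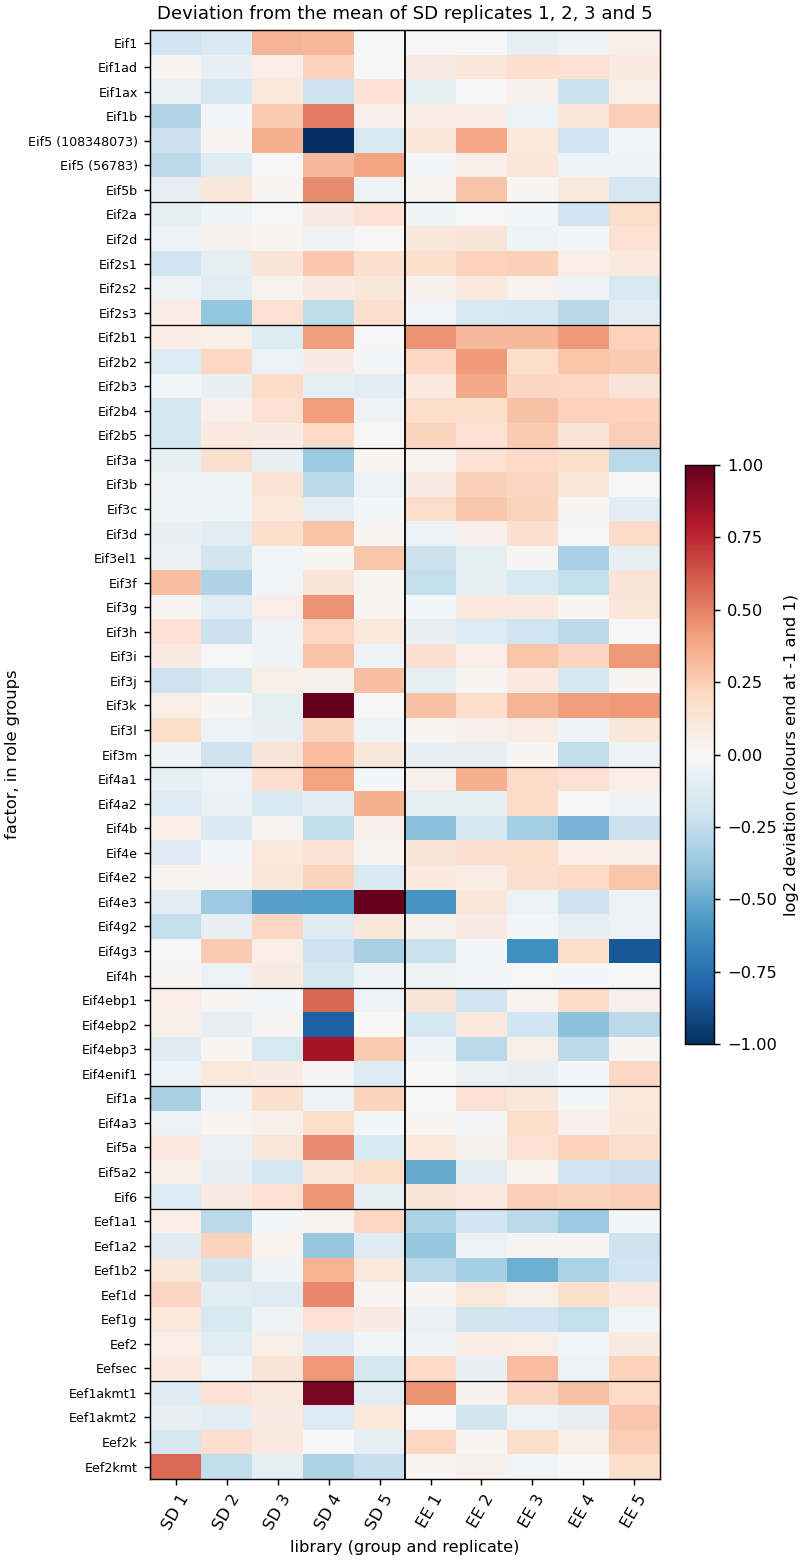
Colour shows the log2 value of each of the 59 factors (rows, in role groups) in each library (columns) minus the mean of SD replicates 1, 2, 3 and 5, so those columns centre on 0 by construction. In the SD 4 column 8 members lie more than 0.5 from the mean of the other SD libraries, against at most 2 for any other library within its own group.

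The start of the transcript is where a known feature of this family lies. Many mRNAs of the translation apparatus begin with a 5′ terminal oligopyrimidine (TOP) tract, a C followed by a run of pyrimidines, through which mTORC1 and LARP1 control their translation and stability in human and mouse cells. Of the members, 9 that are known as TOP mRNAs in mammals were kept as a list. These were Eef1a1, Eef1b2, Eef1d, Eef1g, Eef2, Eif4b, and the eIF3 subunit genes Eif3el1, Eif3f and Eif3h. The list may leave out other TOP mRNAs of the family. The 5 eIF2B genes were kept as another list. Both lists were kept with the directions in these data known, since the lower and higher members of the family gather there. The common direction of each list is therefore a description and not independent support. The windows below run from 12 bases before to 18 bases from the start of the RefSeq gene model (GRCr8), 5′ to 3′ on the strand of the gene, and capitals mark each C followed by at least 4 C or T beginning within 10 bases of that start. The build differs from the rn6 build of the deposited data.
Eef1a1 (chr8:88225052-88225081, minus strand): ccttggacgttCTTTTTCgcaacgggtttg
Eef1b2 (chr9:72074079-72074108, plus strand): ccggccggtcccggCCCTTTTTCTCCCTCa
Eif3f (chr1:172369050-172369079, plus strand): cgCCCTTCCgttctagCCTCTCTCTTTCTC
Eef2 (chr7:9189221-9189250, minus strand): cgccgcagccgccgccatcgtcggcgcgct
Eef1g (chr1:215289803-215289832, plus strand): ctctgcggaatcaccatggcggctggggta
Eif2b1 (chr12:37686563-37686592, plus strand): cgctgtcaggcggtgctttgctgctggcgg
Eif2b2 (chr6:110597967-110597996, plus strand): agtgaaactggtctggcagttgaggcttct
Eif2b3 (chr5:135728830-135728859, plus strand): gtcagccggaggcagcgtggggagcgctgg
Eif2b4 (chr6:30903227-30903256, plus strand): gagcctaggacccacagtcatggctgcggt
Eif2b5 (chr11:93908783-93908812, minus strand): actgcgtgcggtgtggCTTCCCggcggacg

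A run of this kind was present near the annotated start of 3 of the 5 TOP list genes with a window, 1 of the 5 eIF2B genes and 17 of the 52 members with a window (32.7%). Among all 27457 genes with a RefSeq window 30.3% had one, so the motif as searched, on the strand of the gene only, did not set the family apart. Annotated starts can lie some bases from the true start, which moves such a window, and a match is only a description of these letters.

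No factor passed an adjusted p of 0.05 (limma, Benjamini-Hochberg over all genes that varied), either over all 10 libraries or without SD replicate 4, where the smallest adjusted p among members was 0.506 and 0.267. Over all genes the same test called 0% of genes with all 10 libraries and 0.00772% (1 gene) without SD replicate 4. At an unadjusted p under 0.05, 3 members were higher in EE milk over all 10 libraries, beside 3.35% of all genes, and 2 were lower, beside 4.05% of all genes. Without SD replicate 4 the counts were 8 higher, beside 5.15%, and 2 lower, beside 5.24%. In shares, 8 of 59 members is above that background, and 2 of 59 is near or below it. The 3 and 2 became 9 higher, beside 7.67% of all genes, and 0 lower, beside 1.7%, when libraries were scaled to their counts outside the caseins, and without SD replicate 4 that scaling gave 12 higher, beside 8.46%, and 0 lower, beside 2.43%. Over all 10 libraries it moved the median of all genes from -0.01 to 0.11 on the log2 scale. In bulk RNA, fewer cells of a type and less RNA per cell cannot be told apart.

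The direction of the family as a whole was even. Of the 59 members, 32 were higher and 27 lower in EE by the sign of the log2 difference (35 and 24 without SD replicate 4), with a median of 0.01 (0.04 without SD replicate 4). The split was 47 higher and 12 lower with scaling to counts outside the caseins, and 27 and 32 once the casein share entered the fit as a covariate. The median over all genes was -0.01 in the first set and 0.00 in the second. Members whose EE libraries all lay above the SD libraries numbered 0 over all 10 libraries, beside 0.754% of all genes, and 1 member, Eef1b2, had all EE libraries below, beside 0.485%. Without SD replicate 4, 5 members had every EE library above every SD library, beside 2.12% of all genes, and 2 had every EE library below, beside 1.55%. The 5 were Eif2b1, Eif2b4, Eif2b5, Eif3k and Eif1ad, and the 2 were Eef1b2 and Eif4b.

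**Figure D2:**
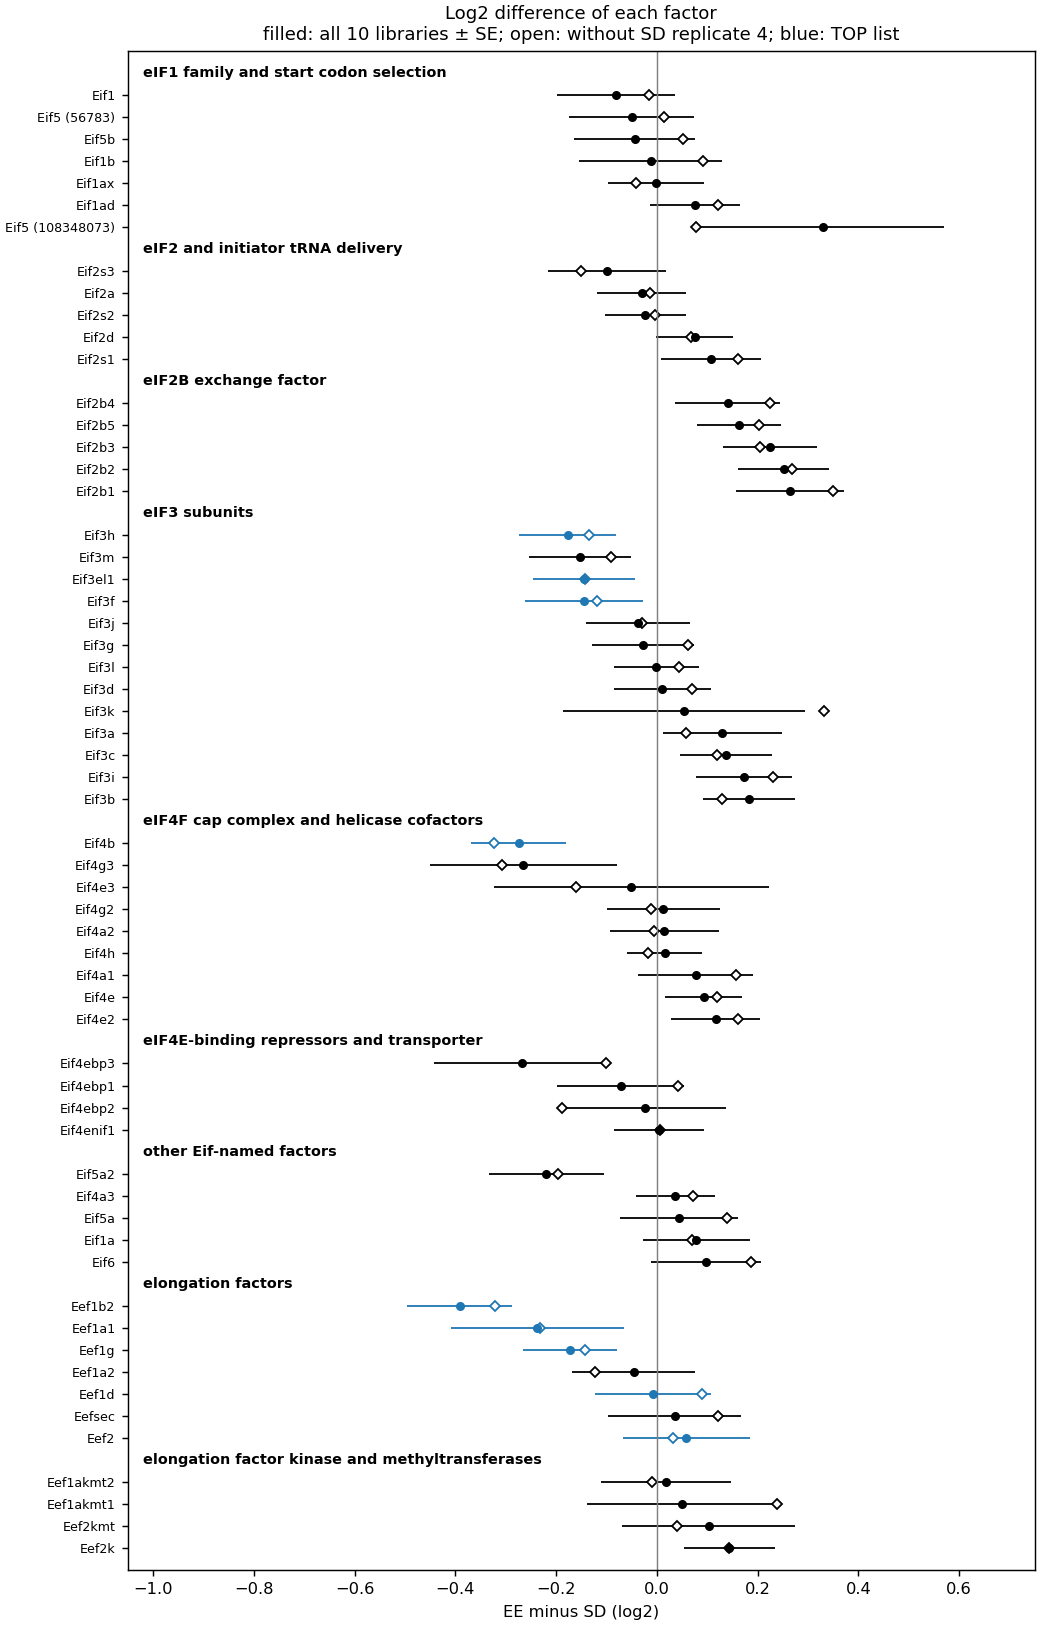
The x axis is the log2 difference EE minus SD for each factor, with role groups in bold, filled points and bars giving the value and standard error over all 10 libraries, open diamonds the value without SD replicate 4, and blue the TOP list. All 5 eIF2B subunits lie to the right of 0 and 8 of the 9 TOP list genes to the left in the filled points, while Eif3k and the row Eif5 (108348073) move most when SD replicate 4 is left out.

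eIF2B, the exchange factor that returns eIF2 to its GTP form, was the only role group with every member on one side of 0 in both sets of libraries. It was singled out with this direction known. All 5 subunit genes were higher in EE milk, by 0.14 to 0.26 on the log2 scale over all 10 libraries and by 0.20 to 0.35 without SD replicate 4, with medians of 0.23 and 0.22. Without SD replicate 4 they were 5 of the 8 higher members past the unadjusted threshold, and the other 3 were Eif3k, Eif3i and Eif6. Another 2 members, Eef1b2 and Eif4b, passed it in the lower direction. Once the casein share entered that fit, 2 of the 5 subunits passed the threshold. They were among 3 higher members that passed, beside 3 lower members. The share of all genes passing with this covariate was not taken, so these counts have no background beside them. Each subunit stayed higher in EE under all 23 alternatives tried, including every scaling. None passed the adjusted threshold.

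Eif2b1, encoding the alpha subunit, had 1270.1, 1256, 1085, 1636 and 1197 normalized counts in the SD libraries and 1666, 1523, 1525, 1637 and 1419 in the EE libraries. The EE libraries lay above 4 of the 5 SD libraries, and SD replicate 4 fell inside the EE range. The means were 1289 ± 207 (standard deviation, n = 5) in SD and 1554 ± 99.6 (n = 5) in EE, and the SD mean was 1202 ± 84.2 (n = 4) without SD replicate 4. The log2 difference was 0.26 (SE 0.107, limma adjusted p = 0.653) over all 10 libraries and 0.35 (SE 0.0807, limma adjusted p = 0.267) without SD replicate 4. The two-sided exact permutation test of this gene gave p = 0.0317 and then p = 0.00794, and the second is the smallest p this test can give. Exact p-values of genes picked for a small p, here and below, do not allow for that choice.

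Eif2b2, the beta subunit gene, had 1206, 1546, 1274, 1413 and 1322 normalized counts in the SD libraries and 1553, 1814, 1512, 1628 and 1613 in the EE libraries. Only SD replicate 2 reached into the EE range, and the other SD libraries lay below all EE libraries. Means were 1352 ± 132 in SD and 1624 ± 116 in EE (n = 5 each), a log2 difference of 0.25 (SE 0.0907, limma adjusted p = 0.614), or 0.27 (SE 0.09, limma adjusted p = 0.394) without SD replicate 4. Its unadjusted p was under 0.05 in all 23 alternatives, as for no other subunit.

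Eif2b3, the gamma subunit gene, had 1077, 1024, 1248, 1005 and 1004 normalized counts in the SD libraries and 1167, 1438, 1272, 1263 and 1192 in the EE libraries. SD replicate 3 lay above EE replicates 1 and 5, and the other 4 SD libraries lay below every EE library. Its log2 difference was 0.23 (SE 0.0936, limma adjusted p = 0.657) over all 10 libraries and 0.21 (SE 0.0922, limma adjusted p = 0.48) without SD replicate 4.

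Eif2b4, the delta subunit gene, had 2481, 2906, 3111, 3764 and 2728 normalized counts in the SD libraries and 3194, 3174, 3442, 3305 and 3298 in the EE libraries. SD replicate 4 was above every EE library and the other 4 SD libraries were below every EE library, so the value rests on that library. Its log2 difference was 0.14 (SE 0.104, limma adjusted p = 0.798) with it and 0.22 (SE 0.0767, limma adjusted p = 0.397) without it.

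Eif2b5 encodes the epsilon subunit, which carries the exchange activity, and had 2543, 3089, 3043, 3309 and 2867 normalized counts in the SD libraries and 3369, 3214, 3464, 3153 and 3434 in the EE libraries. SD replicate 4 again fell inside the EE range and the others lay below it. With every library kept its difference was 0.16 (SE 0.0841, limma adjusted p = 0.687), and it was 0.20 (SE 0.0757, limma adjusted p = 0.428) without SD replicate 4.

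**Figure D3:**
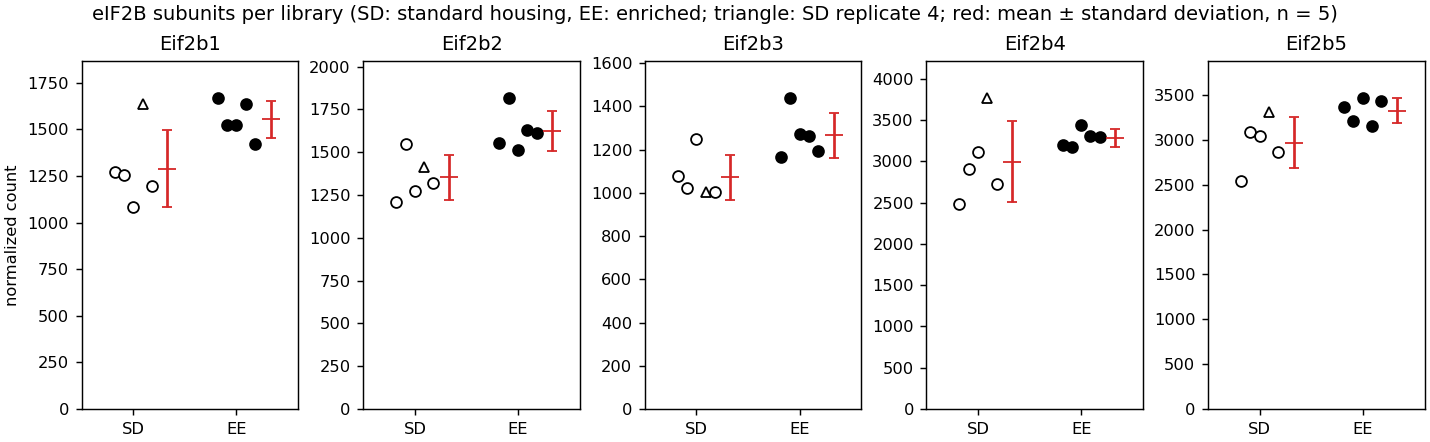
Each panel plots the normalized count of one eIF2B subunit gene in the 5 SD (open) and 5 EE (filled) libraries, with SD replicate 4 as a triangle and the mean and standard deviation of all 5 libraries in red. The EE points sit near or above the top of the open circles in every panel, and the triangle sits among or above the EE points for Eif2b1, Eif2b4 and Eif2b5.

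The 5 subunits were also summarised in each library. Their median deviation from the mean of the other SD libraries was -0.13, 0.06, 0.08, 0.20 and -0.01 on the log2 scale in SD libraries and 0.21, 0.32, 0.26, 0.23 and 0.23 in EE libraries. Every EE library lay above every SD library by this measure, but narrowly. The nearest were SD replicate 4 at 0.196 and EE replicate 1 at 0.209. No single subunit had its groups apart over all 10 libraries, and the 5 were grouped with their direction known. Acta2, which makes up most of the myoepithelial marker sum, also ran higher in EE, while Myh11 did not, and the part of such cells in this result was not tested. EE replicates 3 and 5, with the lowest casein shares, lay inside the range of the other EE libraries. The median of the 5 log2 differences was 0.24 once the casein share entered the fit, and with scaling to counts outside the caseins it was 0.37.

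The genes of eIF2, the substrate of this exchange, and of the tRNA-binding factors Eif2a and Eif2d showed no common direction, with 2 of 5 higher and 3 lower in both sets of libraries. Eif2s1, the alpha subunit that stress kinases phosphorylate, had 2455, 2647, 3093, 3425 and 3171 normalized counts in the SD libraries and 3199.8, 3331, 3346, 2964 and 3032 in the EE libraries. The groups overlapped, and the log2 difference was 0.11 (SE 0.0987, limma adjusted p = 0.857), with a 95% interval of -0.11 to 0.32. Eif2s3, the gamma subunit that holds GTP and the initiator tRNA, had 7979, 5782, 8452, 6356 and 8474 normalized counts in the SD libraries and 7436, 6788, 6728, 6232 and 7006 in the EE libraries. Its difference was -0.10 (SE 0.117, limma adjusted p = 0.888), and it turned positive when libraries were scaled to counts outside the caseins (0.03). Eif2s2, Eif2a and Eif2d had differences of -0.02, -0.03 and 0.08.

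The factors of start codon selection differed little between the groups. Eif1, which keeps the ribosome scanning until a start codon is met, had 10476, 10875, 15262, 15146 and 12077 normalized counts in the SD libraries and 12059, 12043, 11269, 11655 and 12542 in the EE libraries. The SD libraries spread wider than the EE libraries and enclosed all of them, and the log2 difference of -0.08 (SE 0.117, limma adjusted p = 0.905) turned positive (0.05) when libraries were scaled to counts outside the caseins. Eif1ad, which encodes a protein with an eIF1A-like domain, had 752, 698, 780, 884 and 739 normalized counts in the SD libraries and 788, 812, 842, 834 and 797 in the EE libraries. Without SD replicate 4, which was the highest of all 10, the EE libraries lay above the SD libraries, with a difference of 0.12 (SE 0.0774, limma adjusted p = 0.613), against 0.08 (SE 0.0894, limma adjusted p = 0.89) over all 10 libraries. The genes of the other factors of the group, Eif1ax, Eif1b and Eif5b, had differences of 0.00, -0.01 and -0.04.

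The 2 rows of Eif5 moved in opposite ways in SD replicate 4. The row with ID 108348073 had 4149.6, 4893, 6205, 1976 and 4323 normalized counts in the SD libraries and 5249.6, 6341, 5204, 4202 and 4772 in the EE libraries. The row with ID 56783 had 7100.3, 7829, 8519.9, 10720.2 and 11242 normalized counts in the SD libraries and 8466, 8899, 9277, 8230.4 and 8327 in the EE libraries. SD replicate 4 was the lowest of all libraries in the first row and, with SD replicate 5, above all EE libraries in the second. How reads were divided between the rows is not given in the sources used here, so their sum was taken as well. The sum was 11249.9, 12722, 14725, 12696 and 15565 in SD libraries and 13716, 15240.2, 14481, 12432 and 13099 in EE libraries, and SD replicate 4 then lay inside the range of both groups. The difference of 0.33 for the first row, the largest positive value of the family over all 10 libraries on the deposited scale, was 0.08 without that library.

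The 13 eIF3 subunit genes, whose products form the scaffold of the initiation complex, split in direction. Of these, 6 were higher and 7 lower over all 10 libraries, and 8 higher and 5 lower without SD replicate 4. Eif3b and Eif3c, which encode core subunits, had differences of 0.18 (SE 0.0913, limma adjusted p = 0.687) and 0.14 (SE 0.0908, limma adjusted p = 0.768), and both were higher in all 23 alternatives. Eif3b had 9348, 9267, 10549, 7978 and 9214 normalized counts in the SD libraries and 10160.5, 11344, 11152, 10364 and 9535 in the EE libraries. SD replicate 3 lay above EE replicates 1, 4 and 5, and the other SD libraries lay below every EE library. Eif3i had 3696, 3486, 3376, 4278 and 3406 normalized counts in the SD libraries and 3905, 3651, 4257, 4067 and 4736 in the EE libraries. Its EE libraries overlapped the SD libraries, and the difference was 0.17 (SE 0.0951, limma adjusted p = 0.71), or 0.23 (SE 0.0822, limma adjusted p = 0.413) without SD replicate 4.

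Eif3k, a peripheral subunit gene, depended on SD replicate 4 for its value. It had 1394, 1342, 1236, 3614 and 1332 normalized counts in the SD libraries and 1646, 1506, 1699.8, 1802 and 1810.2 in the EE libraries. SD replicate 4 was above every other library, while the other 4 SD libraries lay below all 5 EE libraries. The difference on the log2 scale was 0.05 (SE 0.24, limma adjusted p = 0.967) over all 10 libraries and 0.33 (SE 0.0793, limma adjusted p = 0.279) without SD replicate 4, with an SE that was smaller without that library. Without it the group means were 1326 ± 65.6 in SD (n = 4) and 1693 ± 125 in EE (n = 5), and the exact permutation test gave p = 0.0159. Leaving out SD replicate 2, 3 or 5 in its place turned the sign of the difference (-0.01, -0.04 and -0.01).

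The 3 eIF3 genes of the TOP list were lower in EE, with a median of -0.14 in both sets, while 6 of the other 10 were higher over all 10 libraries and 8 without SD replicate 4, with medians of 0.03 and 0.07. Eif3h had 4982, 3868, 4387, 5216 and 4858 normalized counts in the SD libraries and 4266, 4088, 3906, 3744 and 4493 in the EE libraries. SD replicate 2 was low among the SD libraries and the groups overlapped, with a difference of -0.18 (SE 0.0956, limma adjusted p = 0.706). Eif3f and Eif3el1 had differences of -0.14 (SE 0.117, limma adjusted p = 0.82) and -0.14 (SE 0.101, limma adjusted p = 0.784), with groups that overlapped. Whether the eIF3 genes of the TOP list differ from the other eIF3 genes was not tested. Outside the list, Eif3m was lower by a similar amount (-0.15, -0.09 without SD replicate 4).

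Among the cap-binding factors, Eif4e, the gene of the cap-binding protein, had 3128, 3403, 3693, 3774 and 3502 normalized counts in the SD libraries and 3756, 3862, 3883, 3593 and 3567 in the EE libraries. The groups overlapped, with means of 3500.1 ± 255 in SD and 3732 ± 148 in EE (standard deviation, n = 5 each). Its log2 difference was 0.09 (SE 0.0768, limma adjusted p = 0.826), with a 95% interval of -0.07 to 0.26, and it was positive in all alternatives. Eif4e2, which encodes a cap-binding relative that represses translation, had a difference of 0.12 (SE 0.0889, limma adjusted p = 0.803). Eif4a1, the main helicase gene, had 18743, 19105, 22408, 26368 and 19694 normalized counts in the SD libraries and 20489.6, 25496, 22719.7, 22025 and 20851 in the EE libraries, and SD replicate 4 was the highest of all. Its difference was 0.08 (SE 0.114, limma adjusted p = 0.905), or 0.16 (SE 0.0921, limma adjusted p = 0.576) without that library. Eif4a2, its paralog, was near 0 (0.01) in the presence of SD replicate 5, which lay above all other libraries. Eif4g2, which encodes an eIF4G relative that lacks the eIF4E-binding part, was also near 0, at 0.01 with a 95% interval of -0.23 to 0.26.

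Eif4b, whose product stimulates the eIF4A helicase, had 10261, 8854, 9979.9, 8258 and 10170.4 normalized counts in the SD libraries and 7316, 8689, 7692, 7069 and 8440.3 in the EE libraries. SD replicate 4 was the lowest SD library and lay inside the EE range, and the other SD libraries were above every EE library. The means were 9505 ± 897 in SD and 7841 ± 702 in EE (standard deviation, n = 5 each). The log2 difference was -0.27 (SE 0.0943, limma adjusted p = 0.592) over all 10 libraries and -0.32 (SE 0.0848, limma adjusted p = 0.301) without SD replicate 4, with exact permutation p = 0.0317 and p = 0.0159. It stayed negative in all 23 alternatives and was at an unadjusted p under 0.05 in 21 of them.

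Eif4h encodes a related cofactor of the same helicase, and was near 0 in both sets, at 0.02 and -0.02 without SD replicate 4. It had 9528, 9045, 10059.7, 8386 and 9187 normalized counts in the SD libraries and 9131, 9326, 9428, 9320 and 9428 in the EE libraries, with SD replicate 4 the lowest, and a difference of 0.02 (SE 0.0744, limma adjusted p = 0.968) with a 95% interval of -0.15 to 0.18. Taken within each library, where scaling between libraries has no effect, Eif4b minus Eif4h was 0.11, -0.03, -0.01, -0.02 and 0.15 on the log2 scale in SD libraries and -0.32, -0.10, -0.29, -0.39 and -0.16 in EE libraries. All SD libraries, SD replicate 4 included, lay above all EE libraries. The means were 0.04 ± 0.08 in SD and -0.25 ± 0.12 in EE (standard deviation, n = 5 each), a difference of -0.29. This is a description of a chosen pair and has no test. Eif4a1 minus Eif4a2, Eif4ebp1 minus Eif4ebp2 and Eif4e minus Eif4e2 overlapped between the groups.

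**Figure D4:**
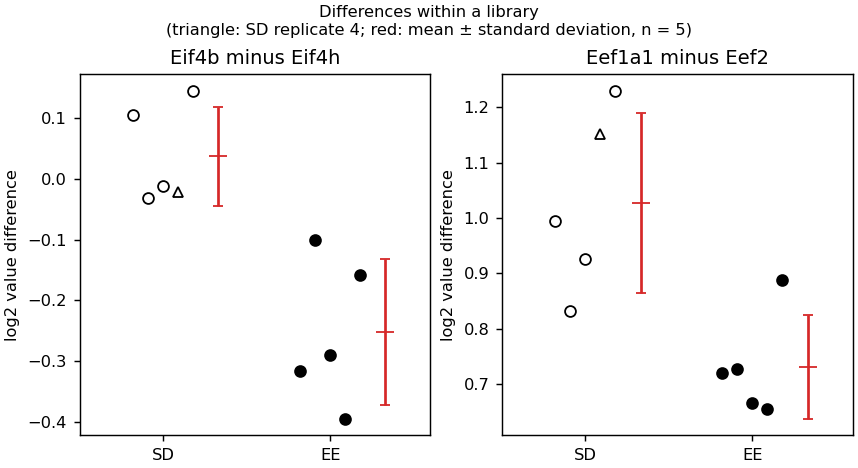
The y axes give the log2 value of one factor minus that of another in the same library, for SD (open) and EE (filled) libraries with SD replicate 4 as a triangle and the mean and standard deviation in red. Eif4b minus Eif4h does not overlap between the groups, with the highest EE library at -0.10 and the lowest SD library at -0.03, and Eef1a1 minus Eef2 overlaps through SD replicate 2 and EE replicate 5.

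The repressors that hold eIF4E, encoded by Eif4ebp1, Eif4ebp2 and Eif4ebp3, turned on SD replicate 4. Eif4ebp1 had 5754, 5549, 5423, 8229.9 and 5283 normalized counts in the SD libraries and 6034, 4769.8, 5648, 6303 and 5703 in the EE libraries. Eif4ebp2 had 4828, 4383, 4735, 2598 and 4617 normalized counts in the SD libraries and 4119.9, 4967, 4058, 3476 and 3829 in the EE libraries. SD replicate 4 was above all other libraries for the first and below all others for the second. The log2 difference of Eif4ebp1 was -0.07 (SE 0.126, limma adjusted p = 0.914) with it and 0.04 (SE 0.0852, limma adjusted p = 0.874) without it, and that of Eif4ebp2 was -0.02 (SE 0.163, limma adjusted p = 0.979) and -0.19 (SE 0.0964, limma adjusted p = 0.526). Eif4ebp3 had 848, 945, 824, 1722 and 1137 normalized counts in the SD libraries and 901, 756, 976, 763 and 939 in the EE libraries, with SD replicate 4 the highest of all, and its difference of -0.27 was -0.10 without it. Eif4enif1, which encodes the transporter of eIF4E, was near 0 in both sets (0.00 and 0.01).

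On the scale of the deposited values, the most negative log2 difference of the family over all 10 libraries was that of an elongation factor. Eef1b2 encodes an exchange subunit that recharges eEF1A with GTP, and had 8168, 6613, 7337, 9606 and 8108 normalized counts in the SD libraries and 6223, 5934, 5351, 6028 and 6553 in the EE libraries. Every EE library was below every SD library, and Eef1b2 was the 1 member for which that held with all 10 libraries. The means were 7966 ± 1115 in SD and 6018 ± 442 in EE (standard deviation, n = 5 each). The log2 difference was -0.39 (SE 0.104, limma adjusted p = 0.506), with a 95% interval of -0.62 to -0.17, and -0.32 (SE 0.087, limma adjusted p = 0.322) without SD replicate 4. The two-sided exact permutation test gave p = 0.00794 in both sets, the smallest it can give. The difference was negative in all 23 alternatives, from -0.46 to -0.21, and at an unadjusted p under 0.05 in 21 of them.

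Eef1a1, which encodes the tRNA-delivering factor itself, had 268363, 213581, 255382, 261306 and 297088 normalized counts in the SD libraries and 206504, 224500, 213450, 199432 and 253142 in the EE libraries. Its reads made up 0.313% to 0.506% of all counts in SD libraries and 0.294% to 0.714% in EE libraries. On the normalized scale SD replicate 2 was the lowest SD library and lay inside the EE range, and the other 4 SD libraries lay above all EE libraries. The log2 difference was -0.24 (SE 0.171, limma adjusted p = 0.795) over all 10 libraries and -0.23 (SE 0.169, limma adjusted p = 0.666) without SD replicate 4, with exact permutation p = 0.0397 and p = 0.0714. The 95% interval, -0.61 to 0.14, includes 0. limma's variance trend gives genes this abundant a wide error.

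Eef1g and Eef1d encode the other subunits of the eEF1B complex. Eef1g had 27791, 23072, 25136, 28556 and 27306 normalized counts in the SD libraries and 24611, 22677, 22421, 21841 and 25254 in the EE libraries, with a difference of -0.17 (SE 0.0941, limma adjusted p = 0.708) and groups that overlapped. Eef1d had 3654, 2909, 2861, 4414 and 3174 normalized counts in the SD libraries and 3168, 3372, 3265, 3551 and 3352 in the EE libraries. Its SD libraries enclosed the EE libraries, and its difference of -0.01 was 0.09 without SD replicate 4.

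Eef2, which encodes the translocation factor, had 134668, 119889, 134431, 117525 and 126648 normalized counts in the SD libraries and 125332, 135546, 134528, 126576 and 136736 in the EE libraries. The groups overlapped, and the difference of 0.06 (SE 0.127, limma adjusted p = 0.931), with a 95% interval of -0.22 to 0.33, was near 0 and turned to -0.01 without SD replicate 4 once the casein share entered the fit. Eef1a1 minus Eef2 within a library was 0.99, 0.83, 0.93, 1.15 and 1.23 in SD and 0.72, 0.73, 0.67, 0.66 and 0.89 in EE libraries on the log2 scale. SD replicate 2 lay below EE replicate 5 and all other SD libraries lay above all EE libraries, with a mean difference of -0.30. Eef2k, the kinase gene that inactivates eEF2, had 7809, 9895, 9408, 8805 and 8273 normalized counts in the SD libraries and 10175, 8934, 10036, 9177 and 10473 in the EE libraries. Its difference of 0.14 (SE 0.0895, limma adjusted p = 0.747) was positive in all alternatives. The methyltransferase genes Eef1akmt1, Eef1akmt2 and Eef2kmt had differences of 0.05, 0.02 and 0.10, and of 0.24, -0.01 and 0.04 without SD replicate 4, each with a 95% interval that includes 0. For Eef1akmt1 SD replicate 4 was at 1004 counts and the other SD libraries at 434 to 540.

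Over the whole TOP list, 8 of 9 genes were lower in EE with all 10 libraries and 7 of 9 without SD replicate 4, with medians of -0.17 and -0.14. As the list was kept with these directions known, the counts are a description only. Among the other 50 members, 31 and then 33 were higher, with medians of 0.03 and 0.07. Between 7 and 8 of the 9 were lower in each of the 23 alternatives. By library, the median deviation of the list from the mean of the other SD libraries was 0.11, -0.18, -0.03, 0.13 and 0.08 on the log2 scale in SD and -0.22, -0.14, -0.20, -0.26 and -0.02 in EE libraries. SD replicate 2 lay among the EE libraries, and EE replicate 5, which had the lowest casein share, lay among the SD libraries. The list median was -0.24 with the casein share as a covariate and -0.04 with scaling to counts outside the caseins, where the median of all genes was 0.11.

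**Figure D5:**
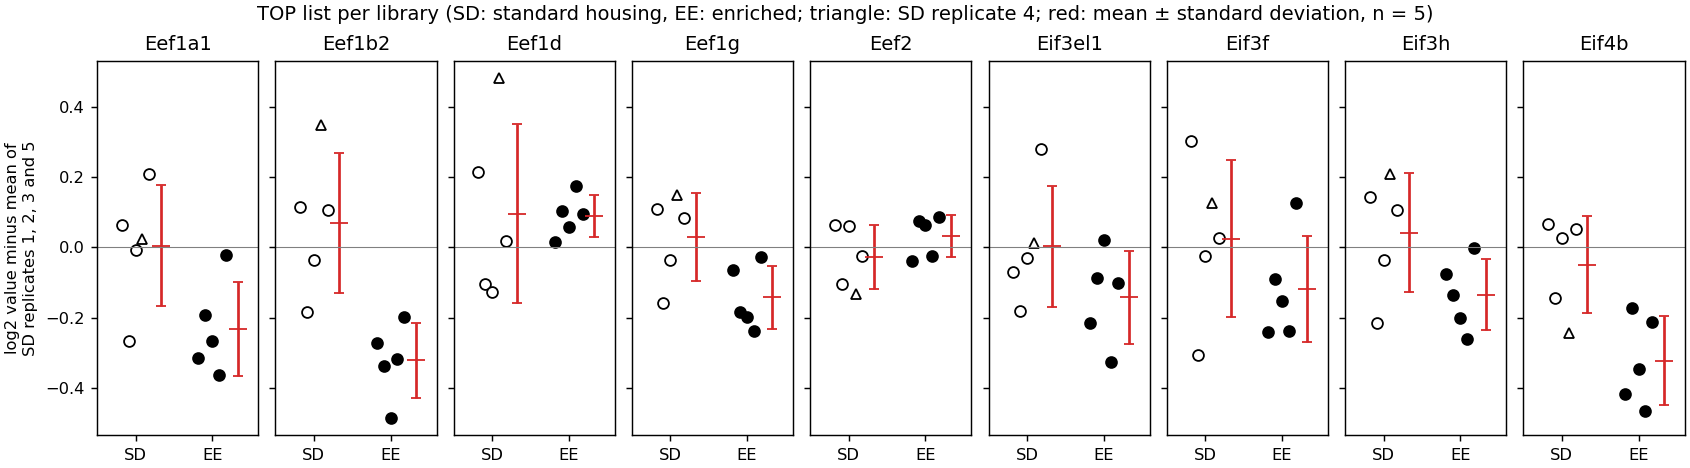
Each panel plots one TOP list gene as its log2 value minus the mean of SD replicates 1, 2, 3 and 5, for SD (open, SD replicate 4 as a triangle) and EE (filled) libraries with the mean and standard deviation of 5 libraries in red. Eef1b2 is the panel in which no EE point reaches the SD points, and Eef2 and Eef1d are those whose EE mean lies above 0.

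Several remaining factors act late in initiation or in elongation. Eif6, whose product keeps the large ribosomal subunit from joining too early, had 1913, 2254, 2339.8, 2901 and 1975 normalized counts in the SD libraries and 2319, 2267, 2513, 2487 and 2509 in the EE libraries. SD replicate 4 was above every EE library, and the difference of 0.10 (SE 0.109, limma adjusted p = 0.885) was 0.19 (SE 0.081, limma adjusted p = 0.466) without it. Eif5a, whose product carries the amino acid hypusine and helps ribosomes through difficult peptide bonds, had 19993, 17909.8, 20416, 26083 and 16810.3 normalized counts in the SD libraries and 20122, 19285, 20830.3, 21985 and 21068 in the EE libraries. Its difference was 0.04, or 0.14 without SD replicate 4, which was the highest library.

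The members with the fewest reads carry little information at this depth. Eif5a2, the paralog of Eif5a, had 6.82, 3.87, 2.42, 8.16 and 10.3 normalized counts in the SD libraries and 0, 3.3, 6.25, 2.12 and 1.78 in the EE libraries. Eef1a2, the eEF1A form of muscle and nerve, had 1.36, 7.77, 3.6, 0 and 1.29 normalized counts in the SD libraries and 0, 2.2, 3.48, 3.18 and 0.595 in the EE libraries. Eif4e3 had 32.7, 20.4, 13.2, 13 and 144 normalized counts in the SD libraries and 11.6, 47.3, 36.2, 27.6 and 36.2 in the EE libraries, of which SD replicate 5 held the most. The transformation pulls the log2 differences of such genes toward 0, so no fold is given for Eif5a2 and Eef1a2. The log2 difference of Eif5a2 was negative in all 22 alternatives that gave it a value, at an unadjusted p under 0.05 in 3 of them.

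The genes that regulate these factors were read from lists of 49 genes, of which 44 were measured. At an unadjusted p under 0.05, 2 were higher and 2 lower in each set, beside 3.35% and 4.05% of all genes over all 10 libraries and 5.15% and 5.24% without SD replicate 4, which for 44 genes is near the background, and none passed the adjusted threshold. Dohh, which encodes the enzyme that completes hypusine on eIF5A, was higher in both sets. It had 1287, 1399, 1368, 1602 and 1214 normalized counts in the SD libraries and 1611, 1654, 1570.2, 1769 and 1577 in the EE libraries, and all EE libraries lay above 4 of the 5 SD libraries, with SD replicate 4 inside the EE range. The difference was 0.24 (SE 0.0894, limma adjusted p = 0.631), or 0.30 (SE 0.075, limma adjusted p = 0.292) without that library. The other higher gene over all 10 libraries was Rps6ka1, a ribosomal S6 kinase gene, at 0.26 (SE 0.102, limma adjusted p = 0.646). Without SD replicate 4 it was Pelo, a ribosome rescue gene, at 0.17 (SE 0.0735, limma adjusted p = 0.458). Both were named after their values were seen, since they passed in 1 set only.

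Eif2ak3 encodes the eIF2 kinase PERK, which senses stress in the endoplasmic reticulum, and had 1449.8, 1256, 1216, 982 and 1004 normalized counts in the SD libraries and 1002, 1098, 638, 1042 and 467 in the EE libraries. EE replicates 3 and 5, the libraries with the lowest casein shares, were the lowest, and the other 3 EE libraries lay inside the SD range. The difference was -0.49 (SE 0.207, limma adjusted p = 0.657), or -0.54 (SE 0.221, limma adjusted p = 0.437) without SD replicate 4, and -0.04 over all 10 libraries once the casein share entered the fit. Of the 13 listed genes of the eIF2 kinases and the integrated stress response, 6 were higher and 7 lower over all 10 libraries, with a median of -0.04.

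Pabpc1 encodes the poly(A)-binding protein, which joins the tail of the mRNA to eIF4G at the cap. It had 32265, 24464, 29814, 21069.6 and 33119 normalized counts in the SD libraries and 20842, 22995, 17888, 19614 and 23599.5 in the EE libraries. SD replicate 4 lay inside the EE range, and the other SD libraries were above every EE library. The means were 28146 ± 5199 in SD and 20988 ± 2365 in EE (standard deviation, n = 5 each), a log2 difference of -0.41 (SE 0.14, limma adjusted p = 0.588), or -0.51 (SE 0.117, limma adjusted p = 0.267) without SD replicate 4. All 4 measured genes of this list were lower, with Pabpc4 at -0.22, Paip1 at -0.15 and Paip2 at -0.18, and a list median of -0.20. Of the 15 measured genes of mTORC1 and the kinases of translation, 8 were higher and 7 lower, with a median of 0.06. The 7 genes of termination and recycling (3 higher) and the 5 listed with the helicases (3 higher) had medians of -0.01 and 0.10.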

How the data were processed

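Total RNA of the milk fat layer, enriched for mRNA in stranded libraries, was sequenced as 100-bp single-end reads from 5 SD and 5 EE libraries. Per the submitters' processing notes, the genome build was rn6 and DESeq2 was used. The study's methods name the Bioconductor genome package BSgenome.Rnorvegicus.UCSC.rn6 for the alignment, and the counter and annotation are not given in the sources used here. The table deposited by the authors holds log2 values, normalized between libraries and named regularized log values. The floor of 5.46053 common to all libraries is what a variance-stabilizing transformation gives, and inverting such a transformation gave normalized counts. The transformation is thus inferred, as the study's methods name rlog-normalized counts. Without SD replicate 4 the recovered counts matched the authors' means with a log2 ratio spread of 0.0220 over 1354 genes. The signal column used from the authors' deposited table of comparisons is a mean of normalized counts, which served only to check this inversion. Its fold change, error, statistic and p columns were not used.

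Differences between EE and SD came from two-sided limma tests (version 3.58.1, R 4.3.3, with lmFit and trended eBayes) over the 12992 genes that varied, or 12955 without SD replicate 4, with Benjamini-Hochberg adjustment over all of them. For single genes a two-sided exact permutation test used 252 or 126 arrangements (smallest p 0.00794). The script was tested on simulated data. Values below 10 steps were within 0.1 step of a whole multiple in 88.6% to 98.2% of cases per library, which gave the depth, and this depth sets the precision of genes with low counts. The IDs of 58 of the 59 members were found in the RefSeq table, which supplied start windows for 52.

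Members and lists were chosen with earlier results of these data known. Named are Eef1a1 and Eif4e, members at an unadjusted p under 0.05 in either set or with groups that do not overlap, the member with the smallest p and that with the highest mean in each role group, members of the pairs, and pathway genes at an unadjusted p under 0.05 in both sets. Other members are named only to complete their role group or the TOP list. Alternatives were leaving out each library, quantile normalization, median centring, scaling to counts outside the caseins, log2 of the normalized count plus a pseudocount of 1, a mean normalized count of at least 10, no variance trend, array weights, a replicate block and the casein share as a covariate. The 4 scalings and covariate without SD replicate 4 were added after seeing the data. Eif4g1 was not analysed here, so its planned pair with Eif4g3 was not made.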

Additional observations from a re-analysis of the deposited data

Results flagged for a closer look

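Outlying libraries were searched for in the 68 groups of 5 libraries given by 34 named genes and the housing groups. A library was taken as outlying where its gap to the nearest other library, on the log2 scale, exceeded 0.71 of the range of the group. This held in 4 of the 68 groups, and all of these but Eif4a2 were in SD replicate 4. Chance gives about 1 in 20 for a single group. The groups share the same 10 libraries, so that rate cannot be applied to their count. In SD replicate 4, Eif3k was at 3614 normalized counts, with the other SD libraries at 1236 to 1394. In the same library Eif4ebp1 was at 8230 against 5283 to 5754, and Eif4ebp2 was at 2598 against 4383 to 4828. Eif4a2 was at 6551 in SD replicate 5 against 4584 to 4870 in the other SD libraries.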

How the results depend on the processing

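Over all genes, 0 passed the adjusted threshold with all 10 libraries, with 435 higher and 526 lower at an unadjusted p under 0.05 in limma. The count was 0 to 1 when single libraries were left out (1 without SD replicate 2 or SD replicate 4), 1 with quantile normalization, 1 with quantile normalization, median centring or the casein covariate without SD replicate 4, and 3 with scaling to counts outside the caseins without SD replicate 4. Members at an unadjusted p under 0.05 and higher in EE numbered 3, and 1 to 8 when single libraries were left out (1 without SD replicate 2, SD replicate 5 or EE replicate 4, 5 without EE replicate 5, 8 without SD replicate 4). They numbered 6 with quantile normalization or array weights and 9 with scaling outside the caseins, and without SD replicate 4 they numbered 13, 7 and 12 with quantile normalization, median centring and scaling outside the caseins, and 3 once the casein share entered that fit (8 before). Lower members numbered 2, 2 to 5 when single libraries were left out (5 without SD replicate 2), and 0 with scaling outside the caseins in both sets. The share of all genes at this threshold was taken only over all 10 libraries, without SD replicate 4, and with scaling outside the caseins in both sets. Member counts under the other settings therefore have no background to be read against. The member median of 0.013 became 0.15 with scaling outside the caseins, 0.17 with it without SD replicate 4 and 0.086 with quantile normalization without SD replicate 4, and ranged from -0.0013 to 0.043 when single libraries were left out. Scaling outside the caseins took the eIF2B median from 0.23 to 0.37 and the TOP list median from -0.17 to -0.042, or -0.029 without SD replicate 4. That scaling also moved the median of all genes, and other causes were not tested.

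Signs of some small differences turned. Array weights gave Eif4ebp1 0.023 and Eif4h -0.0054. The casein covariate gave Eif4g2 -0.019, Eif4a2 -0.047 and Eif4h -0.0060, and without SD replicate 4 it gave Eif4g2 -0.038, Eif4ebp1 0.079, Eif4a2 -0.063, Eef2 -0.011 and Eif4h -0.034. Median centring gave Eif4ebp2 0.00011, and without SD replicate 4 Eif4ebp1 0.057 and Eif4h -0.0042. Quantile normalization gave Eif4ebp2 0.00085, and without SD replicate 4 Eif1 0.00073 and Eif4ebp1 0.086. Scaling outside the caseins gave Eif1 0.049, Eif2s3 0.031, Eif4ebp1 0.058 and Eif4ebp2 0.11, and without SD replicate 4 Eif1 0.099, Eif4ebp3 0.0034 and Eif4ebp1 0.16. Among the 34 genes followed through the alternatives, leaving out single libraries turned 7, over ranges of -0.040 to 0.33 for Eif3k, -0.041 to 0.070 for Eif4g2, -0.12 to 0.043 for Eif4ebp1, -0.018 to 0.14 for Eif5a, -0.034 to 0.11 for Eif4a2, -0.19 to 0.031 for Eif4ebp2 and -0.018 to 0.047 for Eif4h.

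With the replicate number as a block, 3 members were higher and 2 lower at an unadjusted p under 0.05, as without it, and the smallest adjusted p among members was 0.426. Deviations of same-numbered SD and EE libraries correlated at -0.09 to 0.28, so the numbers were not taken to pair libraries. Genes with few reads, Eif5a2 and Eef1a2, are limited by depth.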
